A study of Mus musculus with 12 samples.

Results

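The heat shock and small chaperone genes described here are 10 genes of 18530 in the deposited expression table: Hspa1a, Hspa1b, Hspa8, Dnajb1, Hsph1, Hsp90aa1, Hspb1, Cryab, Hspb7 and Bag3. They were chosen by gene symbol and not by their values, and all 10 were measured in every library and passed the filter on low values, which left 12798 genes. RNA came from cardiomyocytes isolated from mouse hearts in 4 groups of 3 libraries each: mdx:Utrn+/- mice given PB1046, mdx:Utrn+/- mice given saline, mdx mice given PB1046 and mdx mice given saline. PB1046, a long-acting analogue of vasoactive intestinal peptide, or saline was given every other day between 4 and 12 weeks of age, and hearts were taken at 14 weeks. The PB1046 libraries are labelled as the high dose, and the protocol names 0.75 and 1.5 mg/kg. All 4 groups carry mdx, a mutation of the dystrophin gene Dmd that models Duchenne muscular dystrophy, and Utrn+/- removes 1 working copy of utrophin, a relative of dystrophin. The design has no dystrophin-sufficient group, so each comparison is within dystrophin-deficient hearts. The labels' batch field repeats the group, so a batch of that kind and the group cannot be told apart.

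Chaperones bind unfolded or misfolded proteins and keep them from aggregating. In the HSP70 cycle a J-domain protein delivers the client and starts ATP hydrolysis, and a nucleotide exchange factor releases it. Small heat shock proteins hold unfolding clients without ATP, and in striated muscle they protect the sarcomere and its cytoskeleton, where BAG3 joins them with HSP70 to clear damaged filament proteins. Heat shock factor HSF1 raises the inducible members within minutes of proteotoxic stress, by binding heat shock elements in their promoters.

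Libraries held 7234100 to 25458194 reads, recovered from the deposited TPM (transcript levels per gene length, with the same total in every library), and the first 2 principal components carried 30.9% and 21.8% of the variance, with 7 libraries on the low side of the first and 5 on the high side. The high side held replicates 2 and 3 of both mdx groups and, of the mdx:Utrn+/- libraries, only PB1046 replicate 2. The genotypes were therefore unevenly split between the sides, and the 2 cannot be fully told apart. All 8 cardiomyocyte markers were present, with summed levels of 76170 to 106588 TPM per library, against 192 to 1278 TPM for 8 endothelial markers and 154 to 879 TPM for 6 fibroblast markers. Utrn averaged 6.84 ± 2.82 and 4.97 ± 1.51 TPM in mdx:Utrn+/- cells given PB1046 and saline, against 13.8 ± 6.71 and 9.82 ± 1.29 TPM in mdx cells given PB1046 and saline (SD, n = 3 each), and the labelled genotypes were used as given. The titles number the libraries of a group, and nothing in the labels says that they came from separate mice, so p-values measure the spread between these libraries. A scaling factor of 0.827 to 1.28 per library brought the libraries to a common level, and "scaled TPM" below means TPM divided by it.

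The members spanned over 100-fold in level in these cardiomyocytes. Highest were Cryab (alpha B-crystallin, a small heat shock protein that binds desmin and titin), with a median of 2292 TPM over the 12 libraries, Hspa8 (the constitutive HSP70, HSC70) with 1743 TPM, and Hspb7 (a cardiac small heat shock protein that binds actin) with 1004 TPM. In the middle were Hspb1 (HSP25, the mouse form of HSP27) with a median of 459 TPM, Bag3 with 232 TPM and Hsp90aa1 (the inducible cytosolic HSP90) with 149 TPM. The low class held Dnajb1 (the J-domain protein HSP40) with a median of 35.1 TPM, Hsph1 (HSP105, an HSP110-type nucleotide exchange factor) with 30.8 TPM, and the stress-inducible HSP70 genes Hspa1a with 28.6 TPM and Hspa1b with 15.8 TPM. TPM is a level per length, so these levels can be set beside each other. Per RefSeq on GRCm38.p6, Hspa1a (chr17:34969359-34972156) and Hspa1b (chr17:34956429-34959238) are neighbours on the minus strand, and the other members lie apart from them, on chromosomes 4, 5, 7, 8, 9 and 12.

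**Figure D1:**
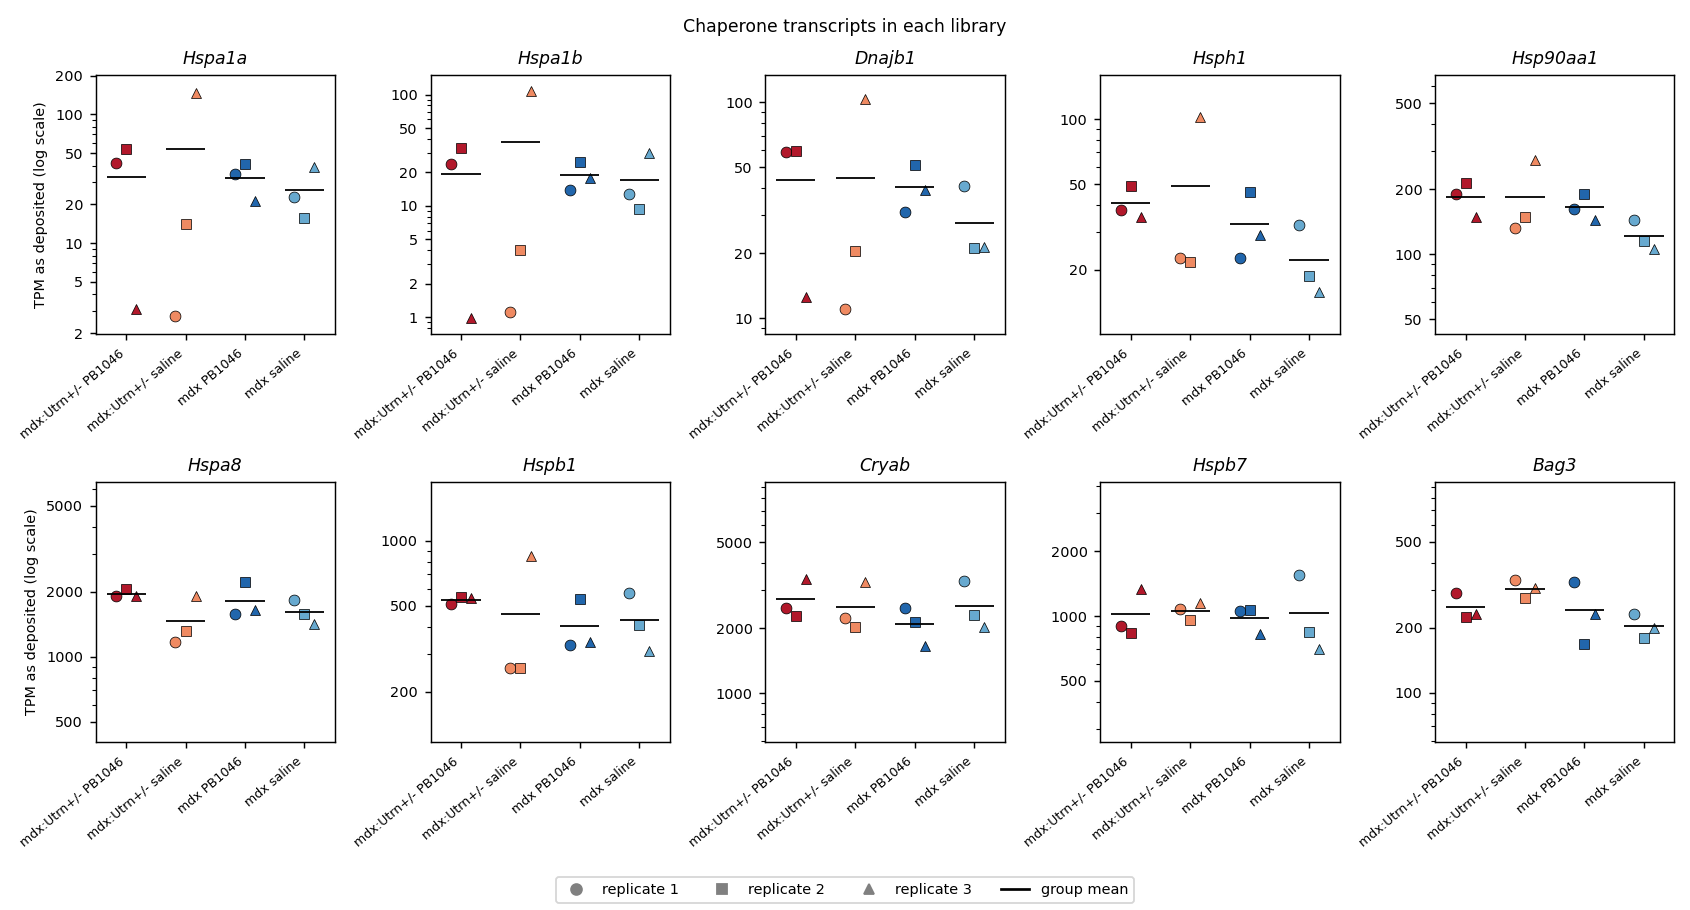
Deposited TPM on a log axis for each of the 10 genes in each of the 12 libraries, with symbols for replicate numbers and a line at the mean of each group of 3 libraries. For Hspa1a, mdx:Utrn+/- saline replicate 3 lies at 145 TPM, while mdx:Utrn+/- PB1046 replicate 3 and mdx:Utrn+/- saline replicate 1 lie near 3 TPM.

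The inducible HSP70 genes varied most, and they varied more between replicates of the same group than between groups. Hspa1a was at 41.7, 53.6 and 3.11 TPM in mdx:Utrn+/- cells given PB1046 and at 2.74, 14.0 and 145 TPM in mdx:Utrn+/- cells given saline. In mdx cells it was at 34.4, 41.3 and 21.1 TPM with PB1046 and at 22.9, 15.8 and 39.2 TPM with saline. The highest and both of the lowest libraries therefore lay in the mdx:Utrn+/- groups, and the 6 mdx libraries lay between them. The highest level was 53.1 times the lowest. Behind these levels stood 68 to 6360 recovered reads per library, so counting error is small beside that range.

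Hspa1b, the neighbouring copy of the gene, had the same highest library. It was at 24.0, 33.2 and 0.981 TPM in mdx:Utrn+/- cells given PB1046 and at 1.12, 3.99 and 108 TPM in mdx:Utrn+/- cells given saline. In mdx cells it was at 13.8, 25.0 and 17.9 TPM with PB1046 and at 12.8, 9.33 and 29.7 TPM with saline. Its highest level was 110 times its lowest, on 28 to 4754 recovered reads. The coding sequences of Hspa1a and Hspa1b, of 1923 and 1926 bases, were 99.6% identical, with 8 differing bases and 3 gap bases and a longest identical run of 638 bases. How reads shared by the copies were counted is not given in the sources used here, so the split between them is uncertain. The summed level of the copies was 3.86 to 254 TPM, with the same libraries at its ends as for Hspa1a.

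Dnajb1, which stimulates the ATPase of HSP70, followed the HSP70 pair. It was at 58.8, 59.3 and 12.6 TPM in mdx:Utrn+/- cells given PB1046 and at 11.0, 20.5 and 103 TPM in mdx:Utrn+/- cells given saline. In mdx cells it was at 31.2, 51.2 and 39.1 TPM with PB1046 and at 40.7, 21.1 and 21.4 TPM with saline. The library highest for Hspa1a was highest here too, and the 2 libraries lowest for Hspa1a were the 2 lowest here. All 4 groups overlapped.

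Sequence upstream of the start sites was searched, because heat shock elements lie there in several HSF1 targets. It is shown for the 4 members with a match and for Dnajb1, which followed the HSP70 pair. The windows of Bag3 and Hspb7, which held no match, are not shown. The RefSeq table (GRCm38.p6, the mm10 genome) held 7 of the 10 members, and Hspa8, Hsp90aa1 and Cryab had no entry. The 250 bases upstream of each start site were searched on both strands for the 8-base heat shock element cores GAANNTTC and TTCNNGAA, each of which is its own reverse complement, and matches are in capitals. The windows shown are Hspa1a (chr17:34972157-34972406, minus strand), Hspa1b (chr17:34959239-34959488, minus strand), Dnajb1 (start site 1, chr8:83607925-83608174, plus strand), Hspb1 (chr5:135887669-135887918, plus strand) and Hsph1 (start site 1, chr5:149636337-149636586, minus strand).
Hspa1a: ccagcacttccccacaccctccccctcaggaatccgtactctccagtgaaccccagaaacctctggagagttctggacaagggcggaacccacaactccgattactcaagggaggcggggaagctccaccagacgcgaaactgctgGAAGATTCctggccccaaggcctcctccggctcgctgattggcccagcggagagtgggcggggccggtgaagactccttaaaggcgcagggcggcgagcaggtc
Hspa1b: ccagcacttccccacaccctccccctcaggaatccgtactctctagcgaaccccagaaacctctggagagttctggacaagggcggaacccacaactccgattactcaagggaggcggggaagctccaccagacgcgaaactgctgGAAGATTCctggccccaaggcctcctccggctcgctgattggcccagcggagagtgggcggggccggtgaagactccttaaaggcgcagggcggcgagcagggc
Dnajb1: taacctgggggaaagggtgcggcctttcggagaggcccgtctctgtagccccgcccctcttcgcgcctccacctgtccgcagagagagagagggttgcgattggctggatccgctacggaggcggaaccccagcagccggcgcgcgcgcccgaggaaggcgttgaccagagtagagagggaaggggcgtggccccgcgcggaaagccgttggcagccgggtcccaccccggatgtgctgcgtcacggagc
Hspb1: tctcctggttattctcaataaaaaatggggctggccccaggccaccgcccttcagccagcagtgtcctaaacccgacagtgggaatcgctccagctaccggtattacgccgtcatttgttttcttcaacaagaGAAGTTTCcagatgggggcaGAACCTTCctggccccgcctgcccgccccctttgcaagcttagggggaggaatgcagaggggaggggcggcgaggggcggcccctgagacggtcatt
Hsph1: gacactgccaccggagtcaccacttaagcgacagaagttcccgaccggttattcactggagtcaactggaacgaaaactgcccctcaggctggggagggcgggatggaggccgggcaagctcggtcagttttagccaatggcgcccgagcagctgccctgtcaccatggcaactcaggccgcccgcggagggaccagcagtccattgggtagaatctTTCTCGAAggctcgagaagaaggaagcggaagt

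A core was found in 4 of the 7 members with an entry. It began 104 bases before the start site in both Hspa1a and Hspa1b, whose windows differed at 3 of 250 bases, and 33 bases before start site 1 of Hsph1. Hspb1 held 2 cores, beginning 117 and 97 bases before its start site. The windows of Dnajb1, Bag3 and Hspb7 held none of these letters, so the gene that moved most closely with the HSP70 pair was one without a match in this window. Of all 32851 start sites in the table, 12.8% held at least 1 core and 1.46% held at least 2. The 13-base form, in which a further GAA or TTC unit follows a core of the other order after 2 free bases, was in 0.466% of start sites and in none of these members. A match describes letters and does not show that a factor was bound.

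Hsph1 and Hsp90aa1 shared the highest library with the HSP70 pair but not its lowest ones. Hsph1 was at 37.9, 49.0 and 35.0 TPM in mdx:Utrn+/- cells given PB1046 and at 22.7, 21.7 and 102 TPM in mdx:Utrn+/- cells given saline. In mdx cells it was at 22.6, 45.9 and 29.1 TPM with PB1046 and at 32.4, 18.7 and 15.9 TPM with saline. Hsp90aa1, whose protein folds kinases and steroid receptors, spanned a narrower range. It was at 190, 215 and 149 TPM in mdx:Utrn+/- cells given PB1046 and at 132, 149 and 272 TPM in mdx:Utrn+/- cells given saline. In mdx cells it was at 163, 190 and 145 TPM with PB1046 and at 144, 115 and 106 TPM with saline. For both genes the lowest library was mdx saline replicate 3.

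Hspb1, which caps actin filaments and forms large oligomers, also differed widely within the mdx:Utrn+/- saline group. It was at 511, 551 and 542 TPM in mdx:Utrn+/- cells given PB1046 and at 257, 259 and 854 TPM in mdx:Utrn+/- cells given saline. In mdx cells it was at 328, 537 and 339 TPM with PB1046 and at 571, 407 and 310 TPM with saline. On the deposited TPM the mdx:Utrn+/- saline group held both the highest library of the 12 and the 2 lowest. On the scaled levels it still held the highest, at 964 scaled TPM, while the lowest was mdx PB1046 replicate 3 at 265 scaled TPM, and the low mdx:Utrn+/- saline libraries, at 310 and 303 scaled TPM, lay beside mdx saline replicate 3 at 305 scaled TPM. The PB1046 libraries of mdx:Utrn+/- lay between 511 and 551 TPM as deposited and between 468 and 618 scaled TPM.

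Hspa8, Cryab, Hspb7 and Bag3 spanned narrower ranges than the HSP70 pair on both scales. On the deposited TPM the highest of the 12 libraries was 1.89 times the lowest for Hspa8, 2.04 times for Cryab, 2.20 times for Hspb7 and 1.97 times for Bag3, against 2.56 times for Hsp90aa1. On the scaled levels it was 1.79 times for Hspa8, 2.85 times for Cryab, 2.37 times for Hspb7 and 3.03 times for Bag3, against 2.94 times for Hsp90aa1, so the place of Bag3 and Cryab in this order depends on the scaling. Cryab averaged 2723 ± 593 and 2507 ± 672 TPM in mdx:Utrn+/- cells given PB1046 and saline, and 2093 ± 410 and 2544 ± 685 TPM in mdx cells given PB1046 and saline (SD, n = 3 each). Hspb7 averaged 1023 ± 270 and 1058 ± 96.1 TPM in mdx:Utrn+/- cells given PB1046 and saline, and 984 ± 136 and 1030 ± 453 TPM in mdx cells given PB1046 and saline (SD, n = 3 each). Their group means lay within the spread of the replicates. Hspa8 averaged 1960 ± 93.0 and 1471 ± 393 TPM in mdx:Utrn+/- cells given PB1046 and saline, and 1813 ± 352 and 1613 ± 209 TPM in mdx cells given PB1046 and saline (SD, n = 3 each).

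The spread between replicates set the inducible HSP70 genes apart from nearly all genes measured. The SD of log2(scaled TPM + 1) within groups was 1.92 for Hspa1b and 1.73 for Hspa1a, ranks 6 and 15 from the widest of 12798 genes, whose median was 0.319. It was 1.05 for Dnajb1 and 0.69 for Hsph1, wider than 98.7% and 92.8% of genes. Hspb1 was at 0.56, Hspb7 at 0.44, Bag3 at 0.44, Cryab at 0.43 and Hsp90aa1 at 0.35, wider than 86.9%, 74.9%, 74.0%, 72.3% and 58.7% of genes, while Hspa8, the constitutive HSP70, was at 0.24 with 29.0% of genes narrower. The members with the widest spread were the inducible ones at low levels.

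**Figure D2:**
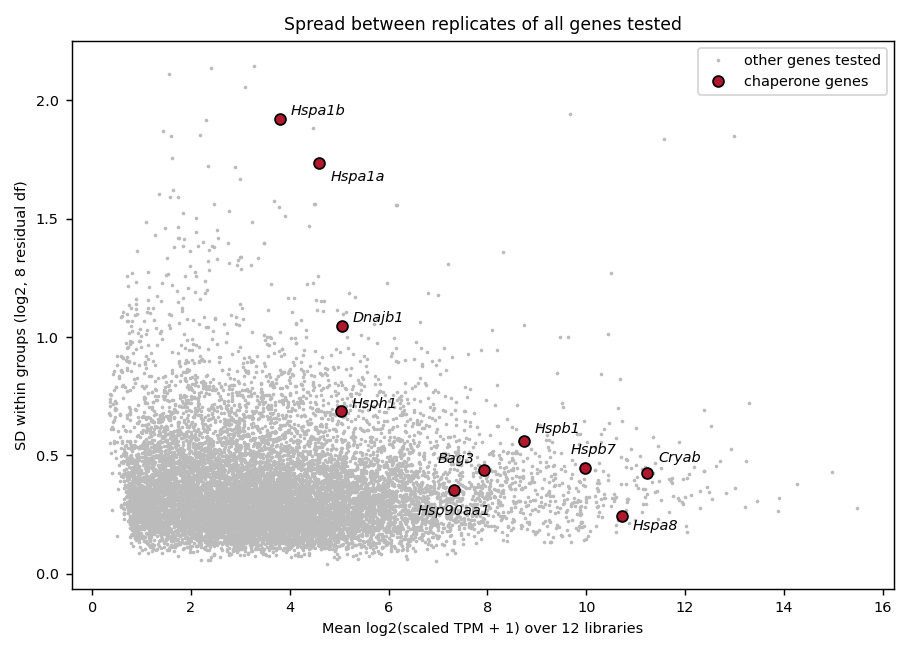
Within-group SD of log2(scaled TPM + 1), with 8 residual degrees of freedom, against the mean over 12 libraries for all 12798 genes tested (grey) and the 10 chaperone genes (red). Hspa1b at 1.92 and Hspa1a at 1.73 lie near the top, and Hspa8 at 0.24 lies below the median of all genes, 0.319.

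Pairs of members were compared over the 12 libraries. Among the inducible members, Hspa1a and Hspa1b were correlated at Pearson r = 0.976 and Spearman rho = 0.958 (permutation p = 1e-05 each, the smallest that 100000 permutations can give; adjusted p = 0.00045). Dnajb1 was correlated with Hspa1a at r = 0.899 and rho = 0.874 (permutation p = 0.0001 and 0.00045, adjusted p = 0.00135 and 0.00506) and with Hspa1b at r = 0.879 and rho = 0.769 (permutation p = 0.00027 and 0.00478, adjusted p = 0.00203 and 0.0269). All 45 pairs of members were computed, with Benjamini-Hochberg adjustment over them, and 8 passed 0.05 by both coefficients, while 14 passed by r. The part of shared reads in the r of Hspa1a with Hspa1b was not tested.

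The constitutive HSP70 moved with Hspb1 and Hsph1. Hspa8 and Hspb1 were correlated at r = 0.905 and rho = 0.930 (permutation p = 4e-05 and 7e-05, adjusted p = 0.0009 and 0.00158). Hsph1 was correlated with Hsp90aa1 at r = 0.896 and rho = 0.790 (adjusted permutation p = 0.00135 and 0.0213), with Hspb1 at r = 0.869 and rho = 0.818 (adjusted permutation p = 0.00257 and 0.0122) and with Hspa8 at r = 0.791 and rho = 0.881 (adjusted permutation p = 0.00613 and 0.00405). HSP105 is an exchange factor for HSC70. Cryab and Hspb7 were at r = 0.888 and rho = 0.853 (adjusted permutation p = 0.00189 and 0.00819). By r over the 12 libraries, the members did not fall into separate sets, because 6 further pairs joined these genes to each other. Those 6 pairs passed by r and not by rho. They were Hsp90aa1 with Hspa8 (r = 0.787), with Hspb1 (r = 0.730) and with Dnajb1 (r = 0.700), Dnajb1 with Hsph1 (r = 0.745), and Cryab with Hspb1 (r = 0.707) and with Hspa8 (r = 0.701), with adjusted permutation p between 0.0109 and 0.0358 by r and between 0.0831 and 0.220 by rho. With the group means removed, r was 0.869 for Hsp90aa1 with Dnajb1 and 0.823 for Dnajb1 with Hsph1. Without mdx:Utrn+/- saline replicate 3, r was lower for both pairs, at 0.485 and 0.525, so these links leaned on that library. Bag3 was in none of the 14 pairs: its r was 0.66 with Cryab, 0.66 with Hspb7 and 0.63 with Hsp90aa1, none past the adjustment by either coefficient.

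The 8 relations that passed by both coefficients did not rest on the extreme libraries alone. With the 2 libraries most distant from the first-named gene's median taken out of each pair, r was 0.944 for Hspa1a with Hspa1b, 0.843 for Hspa1a with Dnajb1, 0.740 for Hspa1b with Dnajb1 and 0.858 for Hspb7 with Cryab. It was 0.916 for Hspa8 with Hspb1, 0.859 for Hspa8 with Hsph1, 0.738 for Hsp90aa1 with Hsph1 and 0.661 for Hspb1 with Hsph1. Without mdx:Utrn+/- saline replicate 3, r was 0.963 for Hspa1a with Hspa1b and 0.741 for Hspb1 with Hsph1, while Hspa1a with Hsph1 was at 0.503 with that library and 0.086 without it. Within the 7 libraries on the low side of the first component, r was 0.986 for Hspa1a with Hspa1b, 0.970 for Hspa1a with Dnajb1, 0.883 for Hspa8 with Hspb1 and 0.612 for Cryab with Hspb7. The other side held 5 libraries, too few for a correlation.

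**Figure D3:**
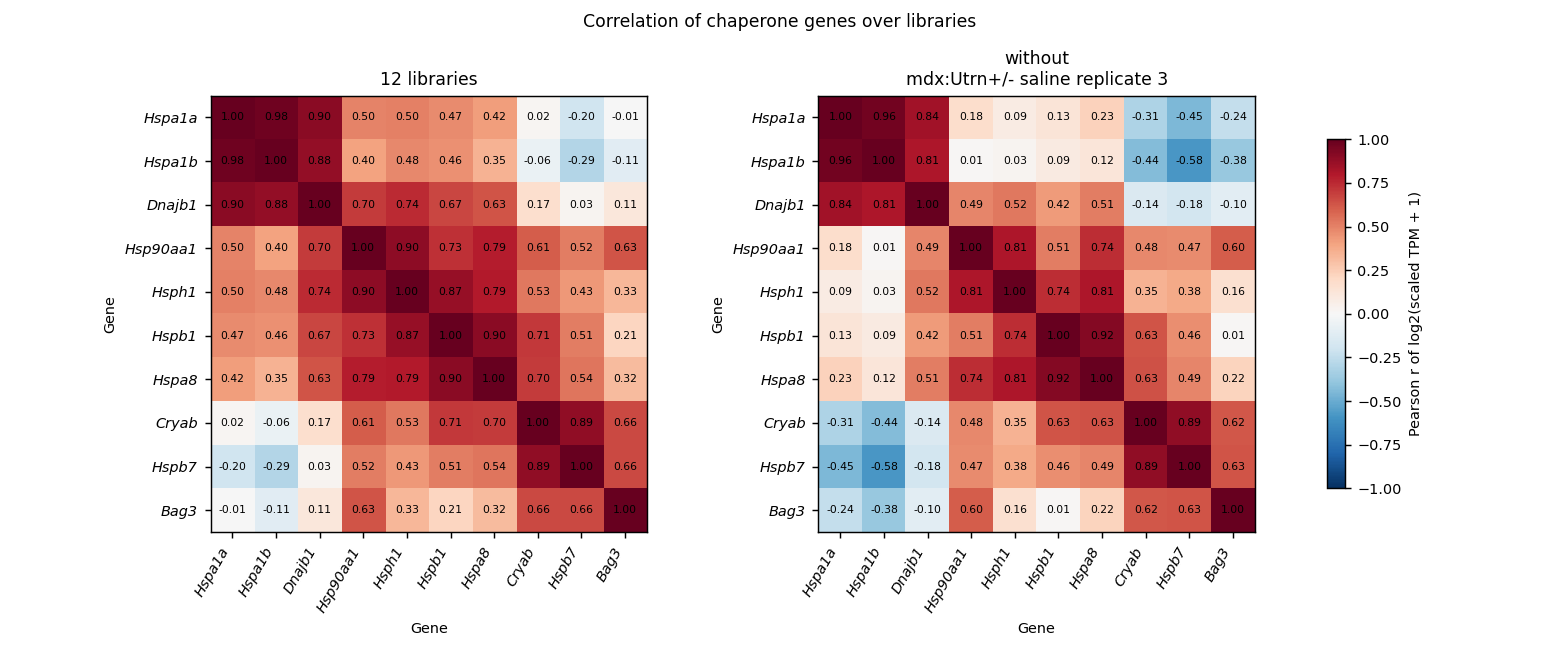
Pearson r of log2(scaled TPM + 1) for each pair of the 10 genes over 12 libraries (left) and over the 11 libraries without mdx:Utrn+/- saline replicate 3 (right), with red for positive and blue for negative values. Hspa1a, Hspa1b and Dnajb1 keep high r in both panels, and their r with Hsph1 is lower in the right one, where Hspa1a with Hsph1 is at 0.086.

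Of the 40 relations of a member with a marker list, Cryab with the cardiomyocyte markers was the one that passed the adjustment by both coefficients. Over 12 libraries Cryab was correlated with the mean level of the 8 cardiomyocyte markers at r = 0.923 and rho = 0.881 (permutation p = 4e-05 and 0.00035, adjusted p = 0.0016 and 0.014 over the 40 relations). With the 2 most distant libraries taken out r was 0.824, and within the 7 libraries it was 0.502. In bulk RNA fewer cardiomyocytes and less Cryab RNA per cardiomyocyte cannot be told apart. Hspb7 with the same markers was at r = 0.784 and rho = 0.699 (adjusted permutation p = 0.0309 and 0.136), and at -0.117 within the 7 libraries, so that relation did not hold there. Bag3 with them was at r = 0.694 and rho = 0.762 (adjusted permutation p = 0.0832 and 0.0749), and at -0.256 within the 7 libraries. With the endothelial markers Bag3 was at r = -0.784 and rho = -0.790 (adjusted permutation p = 0.0344 and 0.0694), and at -0.570 within the 7 libraries. Hspb7 was at r = -0.808 and rho = -0.685 with them (adjusted permutation p = 0.0309 and 0.136), and at 0.665 within the 7 libraries, the opposite sign. Cryab was at r = -0.695 and rho = -0.601 with them (adjusted permutation p = 0.0889 and 0.155), and at 0.919 within the 7 libraries, again the opposite sign.

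Immediate early genes, which mark cells stressed by dissociation, were also set beside the inducible members, since the cells were isolated before RNA was made. The summed level of 10 of them was 1077, 1087 and 501 TPM in mdx:Utrn+/- cells given PB1046 and 584, 696 and 887 TPM in mdx:Utrn+/- cells given saline, against 736 to 1110 TPM in mdx cells given PB1046 and 950 to 1317 TPM in mdx cells given saline. The 2 libraries with the lowest sums were the 2 lowest for Hspa1a, and the library highest for Hspa1a was in the middle of the 12. The list's mean level was at r = 0.613 and rho = 0.664 with Hspa1a (adjusted permutation p = 0.143 and 0.147) and at r = 0.624 and rho = 0.636 with Hspa1b (adjusted permutation p = 0.143 and 0.155), so neither passed the adjustment. Within the 7 libraries r was 0.684 with Hspa1a. The part of cell isolation in these levels was not tested.

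PB1046 against saline in mdx:Utrn+/- hearts gave no member past the threshold. By limma on log2(scaled TPM + 1), with Benjamini-Hochberg adjustment over 12798 genes, 0 of 10 members and 0% of all genes passed an adjusted p of 0.05. At an unadjusted p under 0.05 there were 0 members and 264 genes (2.06%), and limma-voom on the recovered reads gave 0 genes adjusted and 218 unadjusted. Of the members, 4 of 10 were higher with PB1046, with a median log2 difference of -0.07, beside 47.1% of all genes and a median of -0.02. The largest difference was that of Bag3, the co-chaperone of filament clearance, at 291, 225 and 232 TPM with PB1046, against 332, 274 and 304 TPM with saline. Its log2 difference was -0.48 (SE 0.33, adjusted p = 0.997 by limma), and its groups overlapped, as did those of all 10 members on the scaled levels, beside 5.68% of all genes whose groups did not overlap. For Hspa1a, at -0.10, the 95% interval ran between -2.66 and 2.47, so this design cannot show a change of several fold in either direction. The marker lists differed too: 8 of 8 endothelial markers were higher with PB1046, with a median of 0.68 and sums of 262 to 1030 TPM against 225 to 315 TPM. All 6 fibroblast markers and all 5 macrophage markers tested were lower, with medians of -0.31 and -0.52. Their part in the members' values was not tested.

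That comparison rested on mdx:Utrn+/- saline replicate 3, the library with the highest deposited TPM for 6 of the 10 members. Without it, 8 of 10 members were higher with PB1046 and their median log2 difference was 0.53, beside 49.4% of all genes and a median of -0.01. Hspb1 was then at 0.83 (unadjusted p = 0.0155, adjusted p = 0.540 by limma), Hspa1b at 1.73 and Hspa1a at 1.32 (adjusted p = 0.579 and 0.651). At an unadjusted p under 0.05 by limma the fit without it had 1 of 10 members, beside 1150 of 12774 genes, against 264 genes with all libraries. None of the 10 passed the adjustment in either fit. Without the scaling factor, also, 8 of 10 members and 71.8% of all genes were higher.

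PB1046 against saline in mdx hearts likewise gave no member past the threshold. The count by limma was 0 of 10, beside 0% of all genes, and at an unadjusted p under 0.05 it was 0 members and 396 genes (3.09%), while limma-voom gave 0 genes adjusted and 445 unadjusted. Of the members, 7 of 10 were higher with PB1046, with a median log2 difference of 0.08, beside 51.1% of all genes and a median of 0.01. Dnajb1 was at 0.42 (SE 0.72), Hsph1 at 0.38 (SE 0.48) and Hsp90aa1 at 0.29 (SE 0.28), and the lowest was Cryab at -0.42 (SE 0.33), all with an adjusted p of 1.00 by limma. On the scaled levels 0 members had groups that did not overlap, beside 8.37% of all genes. On the TPM as deposited, Hsp90aa1 had no overlap, beside 6.56% of genes in that direction. Of the 8 cardiomyocyte markers 7 were lower with PB1046, with a median of -0.29, in the comparison where Cryab was lower. Other lists had larger medians: 6 of 6 fibroblast markers were higher, with a median of 0.78 and sums of 468 to 879 TPM against 205 to 584 TPM, 5 of 5 macrophage markers were higher with a median of 0.46, and 5 of 5 erythroid markers with a median of 1.93 and sums of 73.7 to 1098 TPM against 19.1 to 99.2 TPM. The immediate early genes were lower for 9 of 10, with a median of -0.68. The part of these lists in the members' values was not tested.

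**Figure D4:**
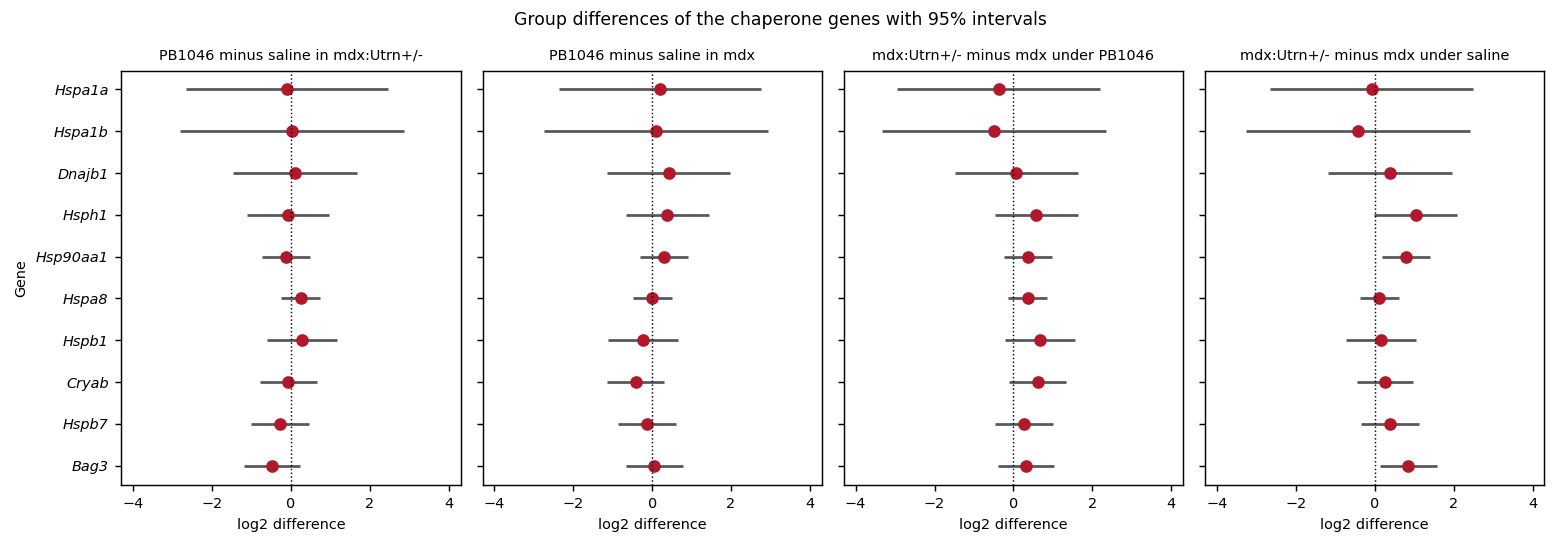
Log2 difference of scaled TPM + 1 for each of the 10 genes (points) with 95% intervals (lines) in the 4 comparisons of groups, 3 libraries a group. The intervals of Bag3 and Hsp90aa1 for mdx:Utrn+/- against mdx under saline lie above 0, and the other intervals include 0.

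The mdx:Utrn+/- genotype against mdx under saline gave, of these 4 comparisons, the only member intervals that left out 0, those of Bag3 and Hsp90aa1, and again none passed the adjustment. Bag3 was at 332, 274 and 304 TPM in mdx:Utrn+/- cells, against 231, 179 and 199 TPM in mdx cells, and the groups did not overlap. Its log2 difference was 0.85 (SE 0.33, unadjusted p = 0.0238, adjusted p = 0.837 by limma). Bag3 also split by side of the first principal component. On log2(scaled TPM + 1) it was at 7.84 to 8.65 in the low-side libraries and at 7.06 to 7.62 in the high-side ones. All mdx:Utrn+/- saline libraries were on the low side, and mdx saline replicates 2 and 3 were on the high side. The part of that component in the Bag3 difference was not tested. Hsp90aa1 was at 159, 175 and 307 scaled TPM in mdx:Utrn+/- cells, against 142, 107 and 105 scaled TPM in mdx cells. The groups did not overlap on that scale and did overlap on the deposited TPM, and the log2 difference was 0.80 (SE 0.28, unadjusted p = 0.0139, adjusted p = 0.837 by limma). Hsph1 was at 27.4, 25.4 and 115 scaled TPM in mdx:Utrn+/- cells, against 32.0, 17.3 and 15.6 scaled TPM in mdx cells. Those groups overlapped, and the log2 difference was 1.04 (SE 0.48, unadjusted p = 0.0519, adjusted p = 0.837 by limma).

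In all, 0 of 10 members and 0% of genes passed the adjustment under saline, and 2 of 10 members and 4.15% of genes had an unadjusted p under 0.05 by limma (531 genes, and 492 by limma-voom, which gave 0 adjusted). Groups did not overlap on the scaled levels for 2 of 10 members, both higher, beside 5.81% of genes higher and 9.79% in either direction. On the deposited TPM that was so for Bag3, beside 0.703% of genes higher. Of the members 8 of 10 were higher, with a median of 0.32, beside 54.7% of all genes and a median of 0.03. Without the scaling factor it was 5 of 10, beside 25.8% of all genes, with medians of 0.05 and -0.20. Hspa1a and Hspa1b were the 2 lower members on the log scale, at -0.08 and -0.42, but not by the mean TPM. Hspa1a averaged 54.1 ± 79.4 TPM in mdx:Utrn+/- cells, against 26.0 ± 12.0 TPM in mdx cells, and Hspa1b 37.8 ± 61.1 TPM, against 17.3 ± 10.9 TPM (SD, n = 3 each). In the authors' deposited table, whose fold changes are turned here to mdx:Utrn+/- over mdx, the log2 fold changes of Hspa1a and Hspa1b were 1.27 and 1.34, with p = 0.154 and 0.188, so the direction depends on how the 3 libraries are averaged. The authors' deposited table gave Hsph1 p = 0.00350, Hsp90aa1 p = 0.00871 and Bag3 p = 0.0181, all with a false discovery rate of 0.935.

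Leaving out mdx:Utrn+/- saline replicate 3 moved these values, Bag3 apart. Bag3 was then at 0.87 (unadjusted p = 0.0443), Hsp90aa1 at 0.51 (unadjusted p = 0.0699) and Hsph1 at 0.34 (unadjusted p = 0.273), with adjusted p = 0.317, 0.360 and 0.591 by limma. At an unadjusted p under 0.05 by limma that fit had 1 of 10 members, beside 1942 of 12774 genes, against 531 genes with all libraries. Of the members 5 of 10 were then higher, with a median of 0.0029, and Hspa1a and Hspa1b were at -1.50 and -2.12. The endothelial marker list was lower in mdx:Utrn+/- cells, for 8 of 8 markers with a median of -0.85 and sums of 225 to 315 TPM against 329 to 727 TPM. The immediate early genes were lower for 9 of 10, with a median of -0.61, 3 of them at an unadjusted p under 0.05 by limma, in the comparison where Hspa1a and Hspa1b were lower on the log scale. The erythroid markers were higher for 5 of 5, with a median of 1.28 and sums of 36.1 to 290 TPM against 19.1 to 99.2 TPM, and the macrophage markers for 5 of 5, with a median of 0.35. The part of these lists in the members' values was not tested.

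The same genotypes under PB1046 also differed in no member past the threshold. By limma 0 of 10 members and 0% of genes passed, 0 members and 214 genes (1.67%) had an unadjusted p under 0.05, and limma-voom gave 0 genes adjusted and 227 unadjusted. Of the members 8 of 10 were higher in mdx:Utrn+/- cells, with a median of 0.34, beside 50.7% of all genes and a median of 0.0045. Without the scaling factor that was 7 of 10, beside 19.9% of all genes. Hspb1 was at 618, 468 and 562 scaled TPM in mdx:Utrn+/- cells, against 350, 422 and 265 scaled TPM in mdx cells. Hspa8 was at 2305, 1757 and 1974 scaled TPM in mdx:Utrn+/- cells, against 1680, 1742 and 1285 scaled TPM in mdx cells. Hspb1, Hspa8 and Hsph1 were the 3 of 10 members whose groups did not overlap, beside 2.48% of genes higher, and on the deposited TPM it was 0 of 10, beside 0.922% of genes higher. Their log2 differences were 0.68 (SE 0.41), 0.36 (SE 0.23) and 0.58 (SE 0.48), and that of Cryab was 0.61 (SE 0.33), with an adjusted p of 1.00 by limma for each. Of the 8 cardiomyocyte markers 8 were higher too, with a median of 0.31, while 6 of 6 fibroblast and 5 of 5 macrophage markers were lower, with medians of -0.81 and -0.76, and their part in these values was not tested.

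The response to PB1046 was compared between the genotypes directly. The interaction passed the adjustment for 0 of 10 members and 0% of genes by limma, with 0 members and 292 genes (2.28%) at an unadjusted p under 0.05, and limma-voom gave 0 genes adjusted and 279 unadjusted. With all libraries it was largest for Bag3 at -0.53 (SE 0.47) and Hspb1 at 0.52 (SE 0.57). That order depended on mdx:Utrn+/- saline replicate 3. Without it, PB1046 minus saline in mdx:Utrn+/- and mdx was 1.73 and 0.097 for Hspa1b and 1.32 and 0.20 for Hspa1a. For Bag3 it was then -0.50 and 0.055. Averaged over treatments, mdx:Utrn+/- minus mdx was 0.59 for Hsp90aa1 (unadjusted p = 0.0114), 0.59 for Bag3 (unadjusted p = 0.0272) and 0.81 for Hsph1 (unadjusted p = 0.0347), with adjusted p = 0.853 by limma for each. These 3 of 10 members compare with 3.7% of all genes at an unadjusted p under 0.05. Hsp90aa1 and Hsph1 were both highest in mdx:Utrn+/- saline replicate 3. Their genotype differences under saline were 0.80 and 1.04 with that library and 0.51 and 0.34 without it. Averaged over genotypes, PB1046 minus saline gave 0 of 10 members at that level, beside 2.57% of genes, with values between -0.24 for Cryab and 0.26 for Dnajb1.

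**Figure D5:**
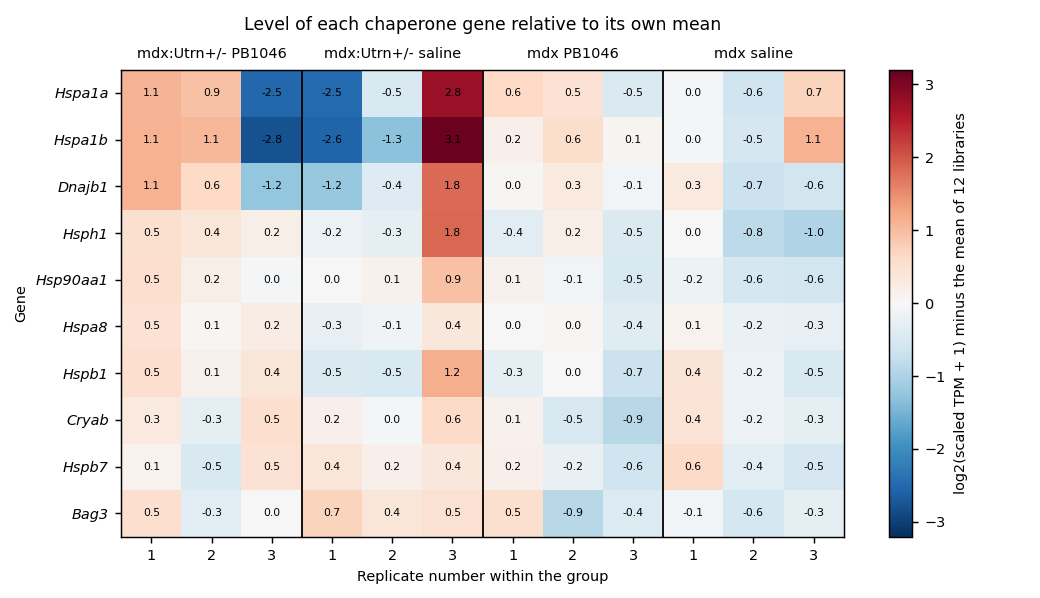
Log2(scaled TPM + 1) of each of the 10 genes (rows) in each of the 12 libraries (columns, by group and replicate number) minus the gene's mean over the libraries, red for higher and blue for lower. mdx:Utrn+/- saline replicate 3 is the highest library for 7 of the genes on this scale, and Bag3 is above its mean in all 3 mdx:Utrn+/- saline libraries.

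The wider chaperone network was read in lists of named partners, none of whose genes passed the adjusted threshold in the 4 comparisons by limma. Under saline, the 5 partners of BAG3 in chaperone-assisted autophagy (Hspb8, Stub1, Synpo2, Sqstm1 and Flnc) were all higher in mdx:Utrn+/- than in mdx cells, with a median log2 difference of 0.48, and so without the scaling factor and without mdx:Utrn+/- saline replicate 3. Stub1, the ubiquitin ligase CHIP, was at 0.48 (unadjusted p = 0.0609) and Flnc, the Z-disc filamin that BAG3 helps to clear, at 0.61 (unadjusted p = 0.0826), with adjusted p = 0.837 by limma for both. The 4 other small heat shock genes were all higher as well, with a median of 0.46, and so under both alternatives. Hspb2 was at 0.59 and Hspb8, which is in both lists, at 0.53. Beside these stand 54.7% of all genes higher with a median of 0.03. For the same genotypes under PB1046, 4 of 5 BAG3 partners were higher, with a median of 0.19, beside 50.7% of all genes. Without the scaling factor it was 2 of 5, with a median of -0.04, beside 19.9% of all genes. The 4 other small heat shock genes were all higher under PB1046 too, with a median of 0.30, and 0.07 without the scaling factor.

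The counts of the larger chaperone lists depended on the scaling, as did the share of all genes that were higher. That share was 54.7% with the scaling factor and 25.8% without it for mdx:Utrn+/- against mdx under saline. In that comparison 11 of 12 HSP90 co-chaperones were higher, with a median of 0.30. The smallest unadjusted p were those of Cdc37 (the kinase adaptor), at 0.37, and Fkbp5 (an immunophilin of steroid receptor complexes), at 1.04, and without the scaling factor it was 7 of 12. Of 9 J-domain genes 8 were higher, with Dnajb2 at 0.54 (unadjusted p = 0.0103) and Dnajb6 at 0.41, and it was 4 without the scaling factor and 5 without that library. Of 10 chaperonin genes 8 were higher with a median of 0.13, among them Hspd1, the mitochondrial HSP60, at 0.42 and Cct7 at 0.19, and without the scaling factor it was 1. The heat shock factor list held Hsf1, Hsf2, Hsf4 and Hsbp1, a heat shock factor binding protein. Of these 4 genes 3 were higher, with Hsf2 at 0.39 and Hsf4 at -0.40, and it was 1 under either alternative. Of the 6 other BAG and exchange factor genes 4 were higher, with Bag2 at 0.49 and Hspbp1 at 0.34, and 2 without the scaling factor.

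The other HSP70, HSP110 and HSP90 genes split, with 5 of 9 higher in that comparison and 3 without the scaling factor. Without that factor 25.8% of all genes were higher. Hsp90ab1, the constitutive HSP90, averaged 684 ± 14.0 TPM in mdx:Utrn+/- and 614 ± 114 TPM in mdx cells given saline (SD, n = 3 each), a log2 difference of 0.45 (unadjusted p = 0.0329, adjusted p = 0.837 by limma). Hspa12a, a distant HSP70 relative, averaged 4.39 ± 0.61 TPM in mdx:Utrn+/- and 11.5 ± 2.99 TPM in mdx cells given saline (SD, n = 3 each), a log2 difference of -0.96 (unadjusted p = 0.000875, adjusted p = 0.837 by limma). Hspa12a was 9.85 ± 2.35 TPM in mdx:Utrn+/- cells given PB1046 (SD, n = 3), 0.83 above saline in that genotype (unadjusted p = 0.00241, adjusted p = 0.997 by limma). The endothelial markers differed in the same direction in both comparisons, with 8 of 8 lower and a median of -0.85 for the genotype under saline, and 8 of 8 higher and a median of 0.68 for PB1046 in mdx:Utrn+/-, and their part in the values of Hspa12a was not tested. In the 2 PB1046 comparisons, the lists had medians between -0.15 and 0.14. Without mdx:Utrn+/- saline replicate 3, the medians in mdx:Utrn+/- lay between -0.35 for the BAG3 partners and 0.32 for the heat shock factors. In that fit 0 of 5 BAG3 partners and 9 of 10 chaperonins were higher with PB1046, beside 49.4% of all genes. With all libraries Hsf2, a heat shock factor, was at -0.58 in mdx:Utrn+/- cells (unadjusted p = 0.0240, adjusted p = 0.997 by limma). In mdx cells Hsp90ab1 was at 0.42 (unadjusted p = 0.0418) and Synpo2, a Z-disc partner of BAG3, at 0.64 (unadjusted p = 0.0438), with adjusted p = 1.00 by limma for both.

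Genes outside these lists whose pattern over the 12 libraries was most like the mean of the 10 members were Zfp568 (r = 0.928), Ablim1 (0.909), Zfhx2 (0.906), Vmn1r58 (0.896) and Nup98 (0.883). These are the highest r of the genes tested outside the members and lists, given as a description over 12 libraries that share depth and scaling. Their Spearman rho was 0.720, 0.741, 0.692, 0.874 and 0.748, in the same order. The members' mean centred level was 1.35 in mdx:Utrn+/- saline replicate 3, and the next library, mdx:Utrn+/- PB1046 replicate 1, was at 0.63.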

How the data were processed

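Poly-A RNA of isolated cardiomyocytes was sequenced with a stranded kit, per the labels' protocols. The deposited table gives TPM per library: it is named raw counts, but every library sums to 1000000. It was made on mm10 with edgeR, per the submitters' processing notes. The aligner and the read counter are not stated in the sources used here. The authors also deposited pairwise log2 fold changes, a likelihood ratio score (not used here), p-values and false discovery rates, per the file headers. Their fold changes run opposite to the order in which a column names its groups (r of -0.928 to -0.953 with log2 differences of TPM), so the 2 that are quoted were turned.

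Whole reads were recovered from the TPM for 100% of values (tolerance 0.1 reads) and were used for depth and limma-voom. Libraries were scaled by a trimmed-mean factor (trims of 30% on log ratio and 5% on level), and a gene was kept if 3 or more libraries reached 1 TPM. limma 3.58.1 (R 4.3.3, trend and robust) was run on log2(TPM/factor + 1) with 1 mean per group and 7 contrasts. A fold change on that scale understates the change of low genes. Benjamini-Hochberg adjustment ran over 12798 genes, at a threshold of 0.05. The procedure was tested on simulated data. Correlations used 100000 permutations. Alternatives were no scaling factor, no filter, another pseudocount, limma-voom, a replicate block and each library left out; leaving out mdx:Utrn+/- saline replicate 3 for the lists was added after seeing the data. The members and lists were chosen with earlier results of these data known. All 10 members are named, and of each list the 2 genes with the smallest unadjusted p in the genotype comparison under saline; for PB1046, list genes are named at an unadjusted p under 0.05, a rule set after seeing the data.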

Additional observations from a re-analysis of the deposited data

How the results depend on the processing

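The count of members past the threshold was 0 in each of the 7 comparisons under every alternative run, and the smallest adjusted p of any member was 0.317. Of 40 member differences, 18 kept their direction in all 12 fits with a library left out and 22 did not. Without the scaling factor the median of all genes moved to 0.15 and 0.14 for PB1046 minus saline in mdx:Utrn+/- and mdx, and to -0.20 for mdx:Utrn+/- minus mdx under either treatment. The replicate numbers did not pair the libraries: of 18 same-numbered pairs 5 correlated above 0.1, between -0.44 and 0.49, and 3 of 12 libraries correlated best with their own number. With the replicate block 0 members passed, and Bag3 under saline stayed at 0.85 (adjusted p = 0.659 by limma).

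Differences turned direction without the scaling factor for PB1046 minus saline in Hspb7 (mdx, 0.011), Cryab (mdx:Utrn+/-, 0.13), Hspa1a (0.074), Hsp90aa1 (0.059) and Hsph1 (0.11), and for mdx:Utrn+/- minus mdx in Cryab (saline, -0.020), Hspb1 (-0.12), Hspa8 (-0.16) and Dnajb1 (PB1046, -0.15). Without the filter Hspa8 turned to -0.030 (PB1046 in mdx), and by limma-voom Hspa1b turned to -0.65 (PB1046 in mdx:Utrn+/-). The turns without the scaling factor follow from leaving it out, as did the shift in the medians of all genes above. The cause of the other turns was not tested.

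With a library left out, PB1046 minus saline in mdx:Utrn+/- ranged over -0.23 and 0.21 for Cryab, -0.53 and 0.98 for Dnajb1, -0.31 and 0.16 for Hsp90aa1, -1.30 and 1.32 for Hspa1a, -1.12 and 1.73 for Hspa1b, -0.0022 and 0.83 for Hspb1, -0.47 and 0.023 for Hspb7, and -0.45 and 0.62 for Hsph1. In mdx it ranged over -0.33 and 0.33 for Bag3, -0.12 and 0.55 for Hspa1a, -0.26 and 0.56 for Hspa1b, -0.11 and 0.14 for Hspa8, -0.44 and 0.0013 for Hspb1, and -0.36 and 0.21 for Hspb7. The genotype difference under PB1046 ranged over -0.40 and 0.77 for Dnajb1, -1.002 and 0.79 for Hspa1a, and -1.15 and 0.79 for Hspa1b. Under saline it ranged over -0.49 and 1.02 for Dnajb1, -1.50 and 1.12 for Hspa1a, -2.12 and 0.73 for Hspa1b, -0.065 and 0.23 for Hspa8, and -0.39 and 0.44 for Hspb1.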
